A study of Mus musculus with 6 samples.

Results

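The genes described here are the nuclear-encoded subunits of mitochondrial complex I and the assembly factors that carry the Ndufaf name, measured by RNA sequencing of mouse kidney. They were taken from the deposited count table by name, as protein-coding genes whose symbol starts with Ndufa, Ndufab, Ndufb, Ndufc, Ndufs, Ndufv or Ndufaf followed by a number, which gave 46 of the 54532 genes in the table. Of these, 38 were subunits and 8 were assembly factors, and all 46 passed the filter on low counts. The samples were kidneys of 3 WT mice (numbered 1, 2 and 3) and 3 Trpm2-/- mice (numbered 1, 2 and 4, labelled TRPM2-KO), all of the C57BL/6J strain and 6 to 8 weeks old by the labels, while the methods of the study give an older age. Every mouse of both genotypes had received cisplatin at 18 mg/kg and was killed after 72 h, so the comparison is of genotypes under treatment and holds no untreated kidney. The mice were male, and the knockout is a global allele that lacks exons coding for part of the transmembrane region of TRPM2, a calcium-permeable cation channel, so no cell type of the kidney was spared.

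Complex I (NADH:ubiquinone oxidoreductase) is the entry point of the respiratory chain: it passes electrons from NADH through a flavin and a row of iron-sulfur clusters to ubiquinone and pumps protons out of the mitochondrial matrix. Its catalytic core is built from subunits encoded in the nucleus, which form the matrix arm, and from the ND subunits encoded in mitochondrial DNA, which form the membrane arm, and a shell of accessory subunits surrounds both arms. Assembly factors build the modules of the enzyme and do not remain in the finished complex. In the kidney, the proximal tubule is rich in mitochondria, depends on respiration and takes up cisplatin.

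Total counts on genes were between 15991951 and 17150089 in the WT libraries and between 14053307 and 16150446 in the Trpm2-/- libraries, and 3 counts, the smallest number treated as detected, corresponded to 0.175 to 0.213 CPM (counts scaled to the library total). All other CPM values use library sizes normalized by TMM. The Trpm2 gene itself had 5 to 27 counts in WT and 10 to 20 in Trpm2-/- kidneys, which includes reads on exons still present in the allele, and the genotype of a library cannot be read from them. Defining markers of proximal tubule were abundant in every library, with summed levels of 3321 to 4517 CPM in WT and 1182 to 1568 CPM in Trpm2-/- kidneys. Of the 10, 9 were called lower, against 7.28% of all genes tested. Podocyte markers summed to 510 CPM in Trpm2-/- mouse 4 and to between 130 and 173 CPM in the other 5 libraries, and endothelial and fibroblast markers were also highest in that library.

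Most complex I genes were lower in Trpm2-/- kidneys. At an adjusted p under 0.05 (edgeR's quasi-likelihood test, Benjamini-Hochberg adjustment over all genes tested), 29 of the 38 subunits and 4 of the 8 assembly factors fell, against 7.28% of all 15816 genes tested. No subunit and no assembly factor was called higher, against 4.74% of all genes. DESeq2 and limma-voom also called 0 of the 46 higher, and no member was above 0 at an unadjusted p under 0.05. The median log2 fold change (Trpm2-/- against WT) was -0.82 for subunits and -0.54 for assembly factors, where the median of all genes tested was 0.02. The summed level of the 38 subunits was 6502, 8327 and 8588 CPM in WT mice 1, 2 and 3 and 3908, 5316 and 4194 CPM in Trpm2-/- mice 1, 2 and 4. The highest Trpm2-/- kidney was thus below the lowest WT kidney, and the mean over Trpm2-/- kidneys was 0.573 of the WT mean. Gene by gene, every Trpm2-/- sample was below every WT sample for 32 of 38 subunits and 6 of 8 assembly factors, against 16.8% of all genes tested. Because whole kidney was sequenced, fewer cells of a type and less RNA per cell cannot be told apart, and the p-values measure the spread between these mice. The loss of single libraries changed these counts, with between 11 and 33 subunits called lower when 1 library was left out: 11 without WT mouse 2, 11 without WT mouse 3 and 14 without Trpm2-/- mouse 1. Calls over all genes dropped too, from 1152 lower in the main fit to 521, 470 and 848 without these mice in turn. The 4 calls of assembly factors fell to 0 without any one of these 3 mice.

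**Figure D1:**
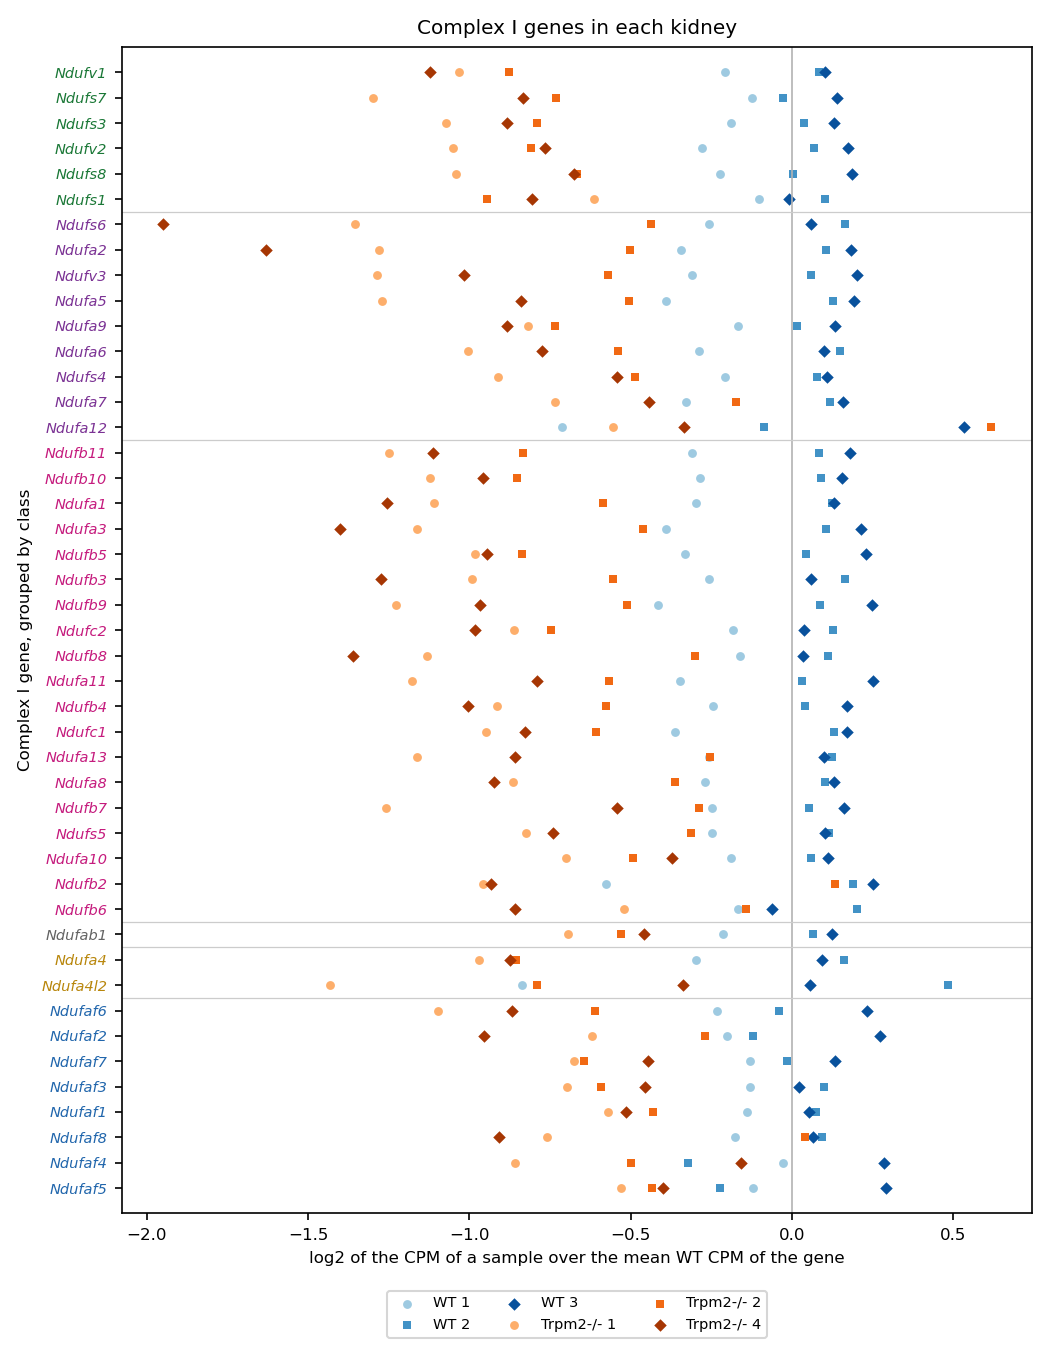
Level of 45 of the 46 complex I genes in each kidney, as log2 of the CPM over the mean WT CPM of that gene (horizontal axis), with genes grouped by class on the vertical axis (green, core subunits; purple, matrix-arm accessory; magenta, membrane-arm accessory; grey, acyl carrier protein; gold, Ndufa4 pair; blue, assembly factors). Blue points are WT mice 1, 2 and 3 and orange to brown points are Trpm2-/- mice 1, 2 and 4; for 37 of the 45 genes drawn the points of the 2 genotypes do not overlap, and Ndufa12 is spread widely in both.

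The 7 nuclear-encoded core subunits, which carry the flavin, the iron-sulfur clusters and the quinone site, fell without exception (7 of 7, median log2 fold change -0.87). Ndufv1, which holds the flavin that accepts electrons from NADH, was at 325, 398 and 404 CPM in WT mice 1, 2 and 3 and at 184, 205 and 172 CPM in Trpm2-/- mice 1, 2 and 4. The genotypes were far apart for this gene, and the Trpm2-/- level was 49.8% of WT (log2 fold change -1.01, SE 0.15, adjusted p = 0.0038). Ndufs7, the iron-sulfur subunit beside the quinone site, was at 239, 256 and 287 CPM in WT kidneys and at 106, 157 and 146 CPM in Trpm2-/- kidneys. Trpm2-/- mouse 1 was the lowest and all 3 lay below WT (log2 fold change -0.93, SE 0.17, adjusted p = 0.0087). Ndufs3, a subunit at the junction of the arms, was at 193, 225 and 241 CPM in WT kidneys and at 104, 127 and 119 CPM in Trpm2-/- kidneys, again with no overlap (log2 fold change -0.91, SE 0.14, adjusted p = 0.0049). Ndufv2, which carries a cluster next to the flavin, had a log2 fold change of -0.87 (SE 0.16, adjusted p = 0.0087), and Ndufs8, which carries clusters on the way to the quinone, one of -0.78 (SE 0.16, adjusted p = 0.014). Ndufs1, the largest iron-sulfur subunit, stood at -0.78 (SE 0.13, adjusted p = 0.0071). The core subunits were tightly grouped among Trpm2-/- mice: their mean log2 CPM had an SD over 3 mice of 0.10, where that of the 9 matrix-arm accessory subunits was 0.35 and that of the 19 membrane-arm accessory subunits 0.29. In WT mice the 3 SDs were 0.16, 0.27 and 0.24. A small SD among Trpm2-/- mice was not particular to the core. For nuclear genes of complexes II, III and V it was 0.06, 0.12 and 0.11, while it was 0.25 for complex IV and 0.15 for the assembly factors. The core and accessory classes also differ in length: the principal transcript (the longest with the best APPRIS tag) had a median of 1623 bases in the core. It was 875 bases in the matrix-arm and 732 in the membrane-arm accessory subunits. Whether length bears on these SDs was not tested. Of the core, Ndufs3 shares reads most: 12.2% of its 75-base transcript windows also occur in another gene. Over all 46 members, 9 share more than 10% of their windows.

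Because these genes were lower together, their promoters were searched for short motifs of factors known to drive nuclear genes of respiration, from 250 bases before to 50 after the start site (RefSeq windows, build GRCm38.p6, 40 of the 46 members matched by symbol). The search used GCGCATGC for NRF1, CCGGAAG for the ETS family to which GABP belongs, AAGATGGC for YY1 and TCAAGGTCA for the estrogen-related receptors, on both strands. The YY1 letters were in 8 of 40 member windows (20%), against 2.88% of 27025 windows in the whole table and 4.50% of the 10651 that belong to protein-coding genes tested here. The 8 were Ndufa3, Ndufa9, Ndufaf8, Ndufb8, Ndufc1, Ndufs4, Ndufs6 and Ndufs7, named because they are the holders. All 8 matches were on the sense strand and began 11 to 39 bases after the start site. In all windows of the table, 32.4% of the YY1 matches were on the sense strand after the start site. The NRF1 letters were in 5 windows (12.5%, against 2.80% and 5.07%), the ETS letters in 6 (15%, against 9.12% and 17.3%) and the letters for estrogen-related receptors in 0 (against 0.407% and 0.253%). Different motifs did not overlap in the member windows, while NRF1 matches on opposite strands did, since that motif is nearly its own reverse complement. The median log2 fold change was -0.83 for the 8 members with YY1 letters and -0.73 for the other members with a window. For the other motifs found, the holders had the smaller fall. It was -0.69 for the 5 members with NRF1 letters against -0.81 for the others with a window. For the 6 with ETS letters it was -0.57 against -0.82. A match is a string of letters and was not tested as a binding site. The YY1 letters contain ATG, and whether a match lies on a translation start was not tested. The windows of Ndufs7, at chr10:80249199-80249498 on the plus strand, and of Ndufs3, at chr2:90904672-90904971 on the minus strand, are shown as core subunits with YY1 letters and with ETS letters on both strands, the motif letters in capitals.
Ndufs7: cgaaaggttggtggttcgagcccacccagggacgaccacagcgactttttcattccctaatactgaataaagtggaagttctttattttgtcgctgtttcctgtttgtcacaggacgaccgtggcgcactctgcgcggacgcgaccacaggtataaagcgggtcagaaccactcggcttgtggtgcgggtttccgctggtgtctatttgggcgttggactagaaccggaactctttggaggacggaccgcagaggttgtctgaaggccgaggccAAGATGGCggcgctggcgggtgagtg
Ndufs3: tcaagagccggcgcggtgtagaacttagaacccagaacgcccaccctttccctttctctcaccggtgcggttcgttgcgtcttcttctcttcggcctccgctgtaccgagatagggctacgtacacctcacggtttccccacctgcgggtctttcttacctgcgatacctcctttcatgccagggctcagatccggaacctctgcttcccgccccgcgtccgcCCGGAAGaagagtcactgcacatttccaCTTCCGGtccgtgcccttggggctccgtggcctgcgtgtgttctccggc

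The accessory subunits, which stabilise the complex and take part in its assembly, fell in 21 of 29 genes, with log2 fold changes of -1.06 to -0.52 among the 21. Among the 9 of the matrix arm 6 were called lower (median -0.81), and among the 19 of the membrane arm 14 (median -0.82). Ndufb11, a membrane-arm subunit encoded on the X chromosome, was at 209, 275 and 294 CPM in WT kidneys and at 109, 145 and 120 CPM in Trpm2-/- kidneys, which do not overlap (log2 fold change -1.05, SE 0.17, adjusted p = 0.0058). Ndufb10, on the intermembrane-space side of the membrane arm, was at 212, 275 and 289 CPM in WT and at 119, 143 and 133 CPM in Trpm2-/- kidneys, again apart (log2 fold change -0.97, SE 0.16, adjusted p = 0.0055). Ndufa9, a nucleotide-binding subunit of the matrix arm near the quinone site, was at 166, 189 and 205 CPM in WT and at 106, 112 and 101 CPM in Trpm2-/- kidneys. The 3 Trpm2-/- values of Ndufa9 were close together and below WT (log2 fold change -0.81, SE 0.13, adjusted p = 0.0056). Ndufc2, another membrane-arm subunit, had 92.7, 115 and 108 CPM in WT and 57.8, 62.6 and 53.2 CPM in Trpm2-/- kidneys (log2 fold change -0.86, SE 0.13, adjusted p = 0.0050). Ndufab1, the mitochondrial acyl carrier protein that is also part of fatty acid synthesis, fell by 0.56 on the log2 scale (SE 0.14, adjusted p = 0.032), from a mean of 166 to 113 CPM.

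At the threshold that the study used, a log2 fold change under -1 with an unadjusted p under 0.05, 4 of 38 subunits were past it, against 4.1% of all genes. These were Ndufs6, Ndufa2, Ndufb11 and Ndufv1, of which Ndufs6 and Ndufa2 were chosen for naming after their values were seen. Ndufs6, a zinc-binding subunit of the matrix arm, had the lowest log2 fold change of all members (-1.11, SE 0.32) but an adjusted p of 0.052, with 145, 194 and 180 CPM in WT and 67.6, 128 and 44.8 CPM in Trpm2-/- kidneys. Its Trpm2-/- values ranged widely, and mouse 2 came close to the lowest WT kidney. Ndufa2, a matrix-arm subunit with a thioredoxin-like fold, was spread in the same manner, at 125, 215 and 98.2 CPM in Trpm2-/- against 240, 328 and 346 CPM in WT kidneys (log2 fold change -1.06, SE 0.27, adjusted p = 0.035). The number of subunits past this threshold depended on single libraries: it was 14 without WT mouse 1 and 14 without Trpm2-/- mouse 2, and 1 without WT mouse 3, Trpm2-/- mouse 1 or Trpm2-/- mouse 4.

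**Figure D2:**
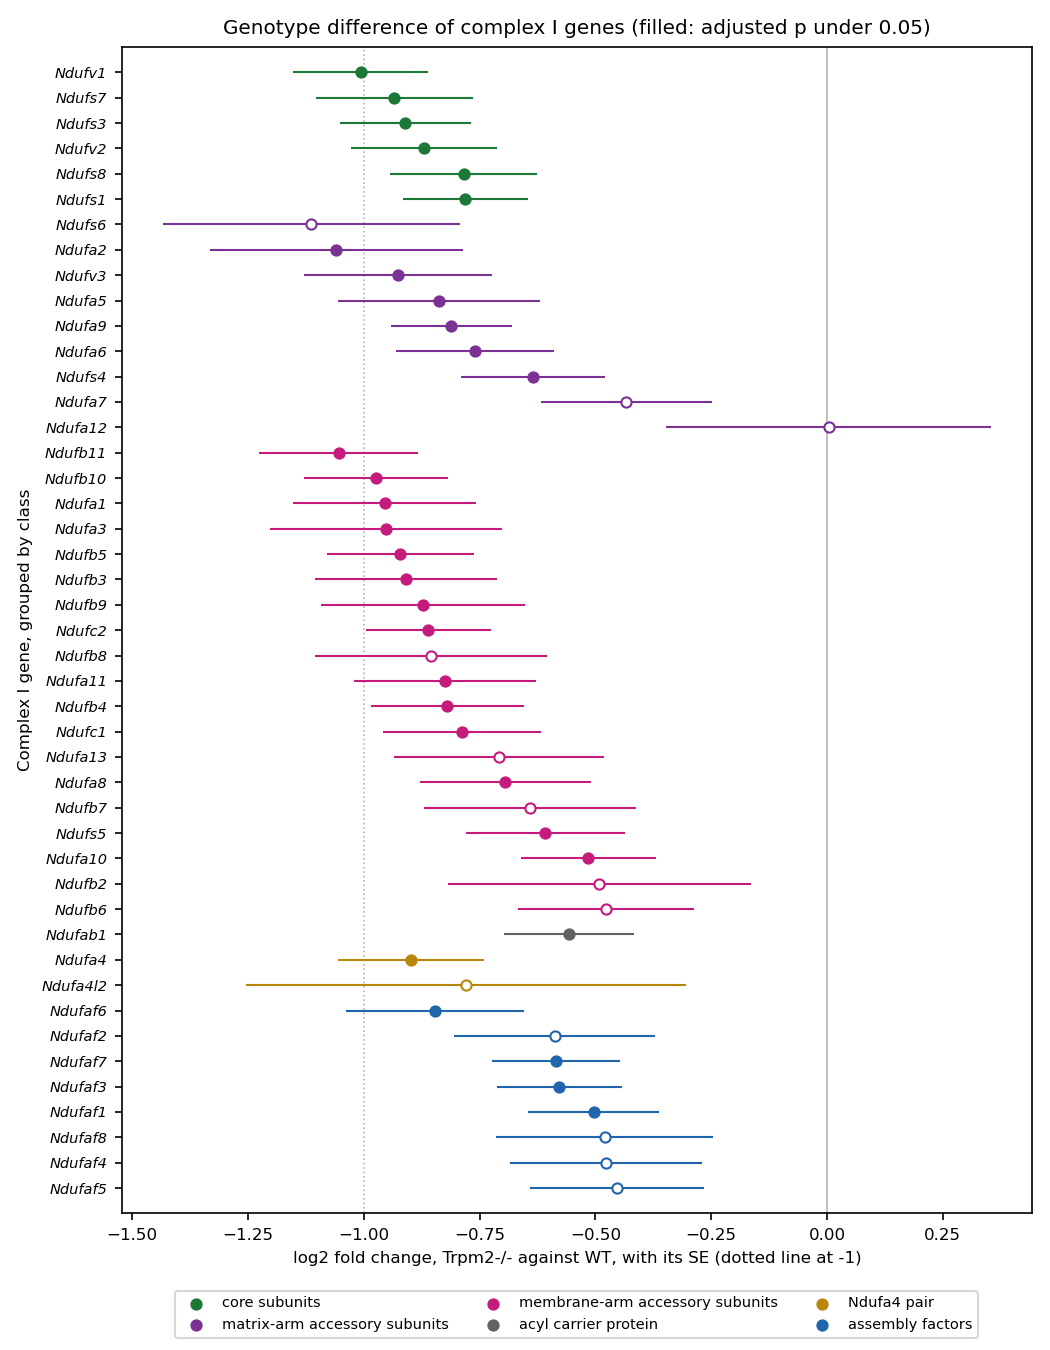
Log2 fold change of 45 of the 46 complex I genes, Trpm2-/- against WT, with its SE as a horizontal bar (n = 3 mice of each genotype), with genes grouped and coloured by class on the vertical axis. Filled points had an adjusted p under 0.05 (32 of the 45 drawn), open points did not, and the dotted line marks -1; the assembly factors lie between -0.85 and -0.45, and Ndufa12 lies at 0.00.

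Of the 9 subunits that were not called, 8 had a log2 fold change between -1.11 and -0.43. Ndufa12, an accessory subunit that takes the place of the assembly factor Ndufaf2 late in assembly, was the exception among all members, with a log2 fold change of 0.00 (SE 0.35, adjusted p = 0.996). It was at 58.1, 89.7 and 138 CPM in WT and at 64.9, 146 and 75.6 CPM in Trpm2-/- kidneys, so the genotypes overlapped fully, Trpm2-/- mouse 2 was the highest of all 6 kidneys and WT mouse 1 the lowest. Of its transcript windows, 14.6% occur in another gene. Ndufb2, a small membrane-arm subunit, was counted far below the other subunits of the complex, at 12.6, 21.4 and 22.3 CPM in WT and 9.67, 20.6 and 9.84 CPM in Trpm2-/- kidneys (log2 fold change -0.49, SE 0.33, adjusted p = 0.37). Its groups overlapped because Trpm2-/- mouse 2 stood at the WT level. In deposited FPKM, which are scaled by gene length (5628 bases for Ndufb2), Ndufb2 was at 2.92 in WT kidneys. The median of the 38 subunits was 117 FPKM and the highest level was 465 FPKM, that of Ndufa2.

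Ndufa4 and Ndufa4l2 carry the family name, but Ndufa4 is now placed in complex IV and Ndufa4l2 is a related gene known to be induced by hypoxia. Ndufa4 was the most abundant member in counts, at 455, 626 and 596 CPM in WT and 285, 309 and 305 CPM in Trpm2-/- kidneys. Its genotypes did not overlap, and the Trpm2-/- mice were close to each other (log2 fold change -0.90, SE 0.16, adjusted p = 0.0075). Ndufa4l2 was the least abundant, with 0.925 to 2.31 CPM in WT and 0.612 to 1.31 CPM in Trpm2-/- kidneys, and its log2 fold change of -0.78 had an SE of 0.47 (adjusted p = 0.32). Without this pair, 28 of 36 subunits were called lower and the median was unchanged to 2 decimals, at -0.82.

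The 8 assembly factors were expressed well below the subunits, with a median over genes of 13.9 FPKM in WT kidneys. Ndufaf6, which acts early on the matrix arm and resembles phytoene synthases, had the lowest log2 fold change of the 8, with 19.6, 22.4 and 27.1 CPM in WT and 10.8, 15.1 and 12.6 CPM in Trpm2-/- kidneys. No Trpm2-/- kidney reached the WT range (log2 fold change -0.85, SE 0.19, adjusted p = 0.022). Ndufaf7, a mitochondrial methyltransferase, was at 33.8, 36.6 and 40.6 CPM in WT and 23.2, 23.7 and 27.1 CPM in Trpm2-/- kidneys (log2 fold change -0.58, SE 0.14, adjusted p = 0.026). Ndufaf3, which works with Ndufaf4 on the quinone-binding module, was at 33.6, 39.5 and 37.4 CPM in WT and 22.7, 24.4 and 26.8 CPM in Trpm2-/- kidneys (log2 fold change -0.58, SE 0.14, adjusted p = 0.025). For both genes all Trpm2-/- kidneys lay below WT. Ndufaf1, a part of the complex that assembles the membrane arm, fell from a mean of 26.1 to 18.4 CPM (log2 fold change -0.50, SE 0.14, adjusted p = 0.048), again with no overlap. No assembly factor was called when WT mouse 2, WT mouse 3 or Trpm2-/- mouse 1 was left out. Over all genes, 521, 470 and 848 were called lower in those fits, against 1152 in the main fit.

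The other 4 assembly factors had log2 fold changes of -0.59 to -0.45 and were not called. Ndufaf2, which is exchanged for Ndufa12, was at 17.8, 18.8 and 24.7 CPM in WT and 13.3, 16.9 and 10.5 CPM in Trpm2-/- kidneys (log2 fold change -0.59, SE 0.22, adjusted p = 0.11), and 63.2% of its windows are shared with a neighbouring gene on overlapping exons, so its counts are uncertain. Ndufaf8, a small partner of Ndufaf5, was at 35.0, 42.3 and 41.5 CPM in WT and 23.4, 40.8 and 21.1 CPM in Trpm2-/- kidneys (log2 fold change -0.48, SE 0.23, adjusted p = 0.21), with mouse 2 inside the WT range. Ndufaf4 had 45.2 to 68.9 CPM in WT and 31.1 to 50.7 CPM in Trpm2-/- kidneys (log2 fold change -0.48, SE 0.21, adjusted p = 0.16), which overlap. Ndufaf5, a hydroxylase that modifies the core subunit Ndufs7, had 14.8 to 21.1 CPM in WT and 11.9 to 13.1 CPM in Trpm2-/- kidneys without overlap (log2 fold change -0.45, SE 0.19, adjusted p = 0.15). The window of Ndufaf8, at chr11:120098684-120098983 on the plus strand, held ETS letters followed by YY1 letters, and that of Ndufaf4, at chr4:24897833-24898132 on the plus strand, held NRF1 letters at 2 places, as shown in capitals.
Ndufaf8: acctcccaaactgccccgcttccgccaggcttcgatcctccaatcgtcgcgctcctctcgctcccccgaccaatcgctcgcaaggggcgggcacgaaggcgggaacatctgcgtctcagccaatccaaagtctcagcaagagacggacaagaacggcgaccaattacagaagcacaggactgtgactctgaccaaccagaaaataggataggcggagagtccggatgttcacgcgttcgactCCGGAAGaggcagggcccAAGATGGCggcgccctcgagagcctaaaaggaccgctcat
Ndufaf4: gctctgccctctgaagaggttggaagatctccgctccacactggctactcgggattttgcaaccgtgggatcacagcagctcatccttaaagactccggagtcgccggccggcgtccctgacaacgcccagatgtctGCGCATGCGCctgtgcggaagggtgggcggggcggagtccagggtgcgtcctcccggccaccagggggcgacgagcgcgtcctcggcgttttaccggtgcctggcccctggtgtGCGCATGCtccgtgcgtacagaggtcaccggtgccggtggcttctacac

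Subunits and assembly factors were then set against each other, the contrast for which the members were chosen. The subunit median was lower than the assembly factor median by 0.28 on the log2 scale. Per mouse, the mean log2 CPM of subunits exceeded that of assembly factors by 2.32, 2.63 and 2.45 in WT mice 1, 2 and 3 and by 2.19, 2.37 and 2.16 in Trpm2-/- mice 1, 2 and 4. The mean of this excess was 2.47 ± 0.15 (SD, n = 3) in WT and 2.24 ± 0.11 in Trpm2-/- kidneys, a difference of -0.23, and the groups overlapped, since Trpm2-/- mouse 2 stood above WT mouse 1. A larger fall of subunits than of assembly factors was therefore seen in the gene medians and was not separated from the spread between mice. The classes also differed in level and length. Their median WT level was 191 CPM for subunits and 31.4 CPM for assembly factors, and the median length of the principal transcript was 921 and 1308 bases. Of the other 13 assembly factors, which do not carry the Ndufaf name, edgeR called 3 lower, against 7.28% of all genes, and 0 higher, against 4.74%. DESeq2 and limma-voom also called 0 higher, and 0 were higher at an unadjusted p under 0.05. The median of the 13 was -0.40. Nubpl, which delivers iron-sulfur clusters to complex I, was at 14.1, 15.4 and 12.2 CPM in WT and 6.73, 3.82 and 6.35 CPM in Trpm2-/- kidneys, far apart (log2 fold change -1.30, SE 0.25, adjusted p = 0.011). Foxred1, an oxidoreductase needed late in assembly, fell by 0.56 on the log2 scale (SE 0.14, adjusted p = 0.028), and Acad9, an acyl-CoA dehydrogenase that works with Ndufaf1, fell by 0.51 (SE 0.14, adjusted p = 0.042). Dmac1, a membrane-arm factor, had a log2 fold change of -0.51 and was not called (SE 0.15, adjusted p = 0.060). Over all assembly factors of both kinds, Nubpl had the lowest log2 fold change and was also lower than any Nduf gene.

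**Figure D3:**
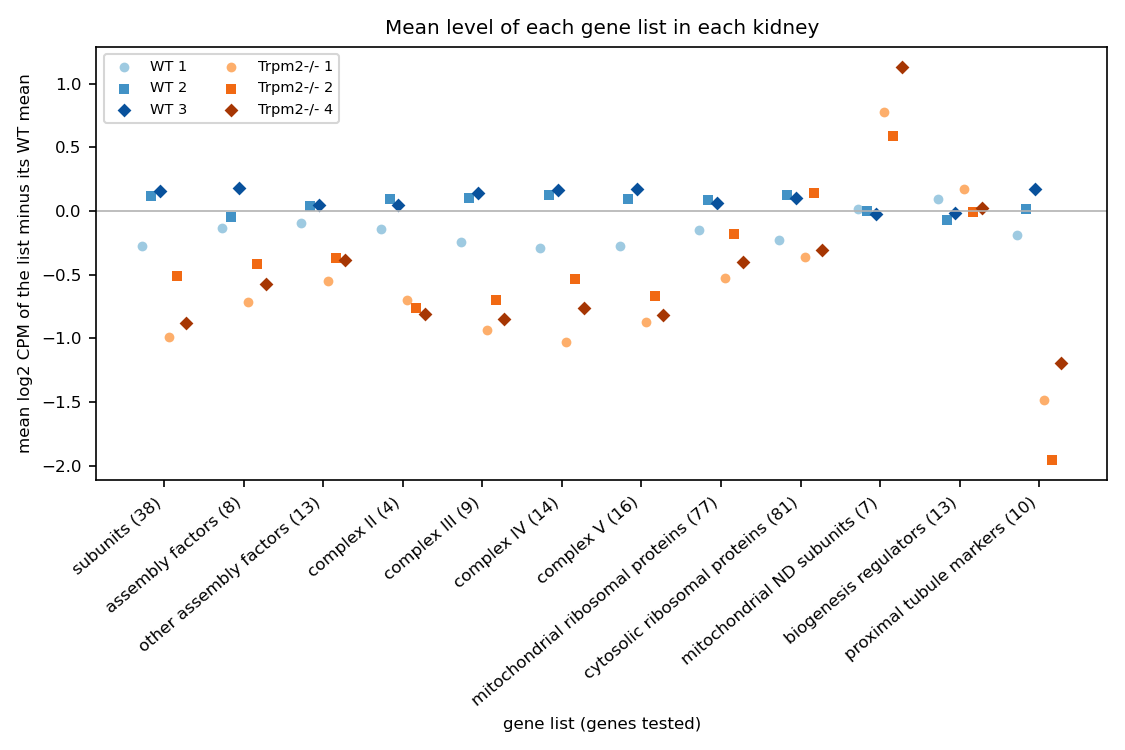
Mean log2 CPM of each gene list in each kidney minus the WT mean of the list (vertical axis), for 12 lists with the number of genes tested in parentheses; blue points are WT mice and orange to brown points Trpm2-/- mice. Subunits lie at -0.99, -0.51 and -0.88 in Trpm2-/- mice 1, 2 and 4 and assembly factors at -0.71, -0.42 and -0.57, while the ND subunits of mitochondrial DNA lie at 0.78, 0.59 and 1.13.

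The 7 ND subunits, which mitochondrial DNA encodes and which form the proton-pumping core of the membrane arm, moved the other way: 3 were called higher, against 4.74% of all genes, and their median log2 fold change was 0.69. By edgeR, DESeq2 and limma-voom 0 were called lower, and 0 were lower at an unadjusted p under 0.05. mt-Nd5 was at 2497, 1842 and 1673 CPM in WT and at 6497, 4829 and 8312 CPM in Trpm2-/- kidneys, well above WT in each mouse (log2 fold change 1.71, SE 0.25, adjusted p = 0.0039). mt-Nd2 was at 3572, 3489 and 3643 CPM in WT and at 5581, 5477 and 8366 CPM in Trpm2-/- kidneys (log2 fold change 0.86, SE 0.21, adjusted p = 0.029). mt-Nd4l was also called higher (log2 fold change 1.83, SE 0.39, adjusted p = 0.017), at only 2.82 to 4.87 CPM in WT and 6.42 to 19.2 CPM in Trpm2-/- kidneys. Of its windows, 98.7% also occur in another gene, against 97.8% for mt-Nd3 and 61.5% for mt-Nd4, so the counts of these 3 genes are uncertain. mt-Nd1 (0.50, SE 0.21, adjusted p = 0.16), mt-Nd4 (0.69, SE 0.20, adjusted p = 0.054), mt-Nd6 (0.45, SE 0.21, adjusted p = 0.19) and mt-Nd3 (0.03, SE 0.15, adjusted p = 0.91) were not called. In 6 of the 7 every Trpm2-/- kidney lay above every WT kidney, against 16.7% of all genes tested, mt-Nd3 being the other. All genes of the mitochondrial genome took 4.43% to 4.72% of the counts in WT and 7.91% to 11.04% in Trpm2-/- kidneys, and leaving these genes out left 29 subunits called lower.

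The nuclear genes of the other respiratory complexes were mostly lower as well, and no test of a difference between the complexes was run. Called lower were 4 of 4 genes of complex II (median -0.71), 6 of 9 of complex III (-0.80), 10 of 14 of complex IV (-0.74) and 12 of 16 of complex V (-0.76), against 7.28% of all genes tested. None of these 43 genes was above 0. Summed over complexes II to V, the Trpm2-/- mean was 0.584 of the WT mean, beside 0.573 for the complex I subunits. Mitochondrial ribosomal proteins had a smaller median, -0.38, with 14 of 77 (18.2%) called lower, against the same 7.28%. Of 81 cytosolic ribosomal proteins, edgeR called 0 in either direction (2 lower at an unadjusted p under 0.05, and DESeq2 called 2 lower). Their median was -0.16, and it turned to 0.14 with a per-sample correction for principal transcript length. Among 13 regulators of mitochondrial biogenesis 1 (7.69%) was called lower, a share close to the 7.28% of all genes, and 0 were called higher by edgeR, with a median of 0.14. At an unadjusted p under 0.05, 2 were higher, and DESeq2 and limma-voom called 0 higher. Esrrb, an estrogen-related receptor, was the one called (not by limma-voom), at 19.7, 12.7 and 26.1 CPM in WT and 8.14, 10.4 and 10.8 CPM in Trpm2-/- kidneys (log2 fold change -0.99, SE 0.26, adjusted p = 0.040). The next by p were not called: Gabpb1, a subunit of the GABP factor whose family letters were searched above, at 0.35 (SE 0.13, adjusted p = 0.10), Esrra, a receptor that drives respiratory genes, at -0.43 (SE 0.16, adjusted p = 0.11), and Ppara, a receptor for fatty acid oxidation, at 0.98 (SE 0.40, adjusted p = 0.15).

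Markers of the proximal tubule were lower along with the complex I genes, and those of other tubule segments were lower in part. For the proximal tubule, 9 of 10 markers were called lower, against 7.28% of all genes. Their median log2 fold change was -1.36, and in all 10 every Trpm2-/- kidney was below every WT kidney, against 16.8% of all genes tested. The order of the Trpm2-/- mice differed between the marker list and the complex I subunits. The mean log2 CPM of the markers was lowest in mouse 2 (-1.96 against the WT mean, with -1.49 in mouse 1 and -1.19 in mouse 4), and that of the complex I subunits was highest in mouse 2. Mouse 2 was also the highest Trpm2-/- kidney for 73 of 81 cytosolic ribosomal proteins, and what sets these orders was not tested. Collecting duct markers summed to 1220 to 1503 CPM in WT and 733 to 818 CPM in Trpm2-/- kidneys, without overlap, a ratio of means of 0.569. Most of this sum was Aqp2, at a mean of 1124 CPM in WT and 555 CPM in Trpm2-/- kidneys. Of the 5 tested, 2 were called lower (Aqp2 and Aqp3, water channels named after their values were seen), against 7.28% of all genes. In log2 fold change, 3 of the 5 were below 0 and 2 above. Markers of the thick limb and distal tubule summed to 853 to 2283 CPM in WT and 296 to 1006 CPM in Trpm2-/- kidneys, which overlap, with a ratio of 0.396. Of the 5 tested, 1 was called lower, against 7.28% of all genes. This was Umod, also named after its values were seen, at a mean of 943 CPM in WT and 240 CPM in Trpm2-/- kidneys. In log2 fold change, 4 of the 5 were below 0 and 1 above. Of the tubular injury markers, all 8 had a log2 fold change above 0 and 3 were called higher, against 4.74% of all genes. Their summed level was 16866 to 18783 CPM in WT and 18704 to 26840 CPM in Trpm2-/- kidneys, which overlap. Most of this sum was Spp1, named after its values were seen, at a mean of 12595 CPM in WT and 14729 CPM in Trpm2-/- kidneys. Spp1 was not called (log2 fold change 0.23, SE 0.23, edgeR adjusted p = 0.56). Of the 7 immune markers tested, edgeR, DESeq2 and limma-voom called 0 in either direction, with 1 higher at an unadjusted p under 0.05. The part that the makeup of the tissue had in the level of complex I genes was not tested.

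Some mice stood apart across the members as a whole. WT mouse 1 was the lowest WT kidney for 44 of 46 members, among them all 38 subunits, and also for 78 of 81 cytosolic ribosomal proteins. Among Trpm2-/- kidneys, mouse 2 was the highest for 37 of 46 members and for 73 of 81 cytosolic ribosomal proteins. Complex I transcripts are short, with a median principal transcript of 977 bases over the members where all tested genes have one of 2978 bases. Over the 46 members, the excess of mouse 2 over mouse 1 (log2 CPM, median 0.42) went with transcript length at a Spearman rho of -0.43, and its excess over mouse 4 (median 0.24) at a rho of -0.54. The log2 fold change between genotypes went with length at a rho of 0.33 over the 46 members and 0.37 over 13580 genes tested, where short genes were the lower ones. These are descriptions over genes that share the same 6 libraries, and the principal transcript is not always the one expressed. With a per-sample correction for principal transcript length, chosen after seeing the data, the subunit median was -0.53, the assembly factor median -0.32, and 19 of 38 subunits and 1 of 8 assembly factors were called lower. Of all 15816 genes tested, 947 were called lower in that fit. With a correction for the deposited gene length, 25 subunits and 2 assembly factors were called lower, with medians of -0.66 and -0.43. There, 1017 of the 15816 genes tested were called lower. No subunit was past the threshold of the study with either correction. Under both, 45 of the 46 members remained below 0, Ndufa12 being the exception.

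**Figure D4:**
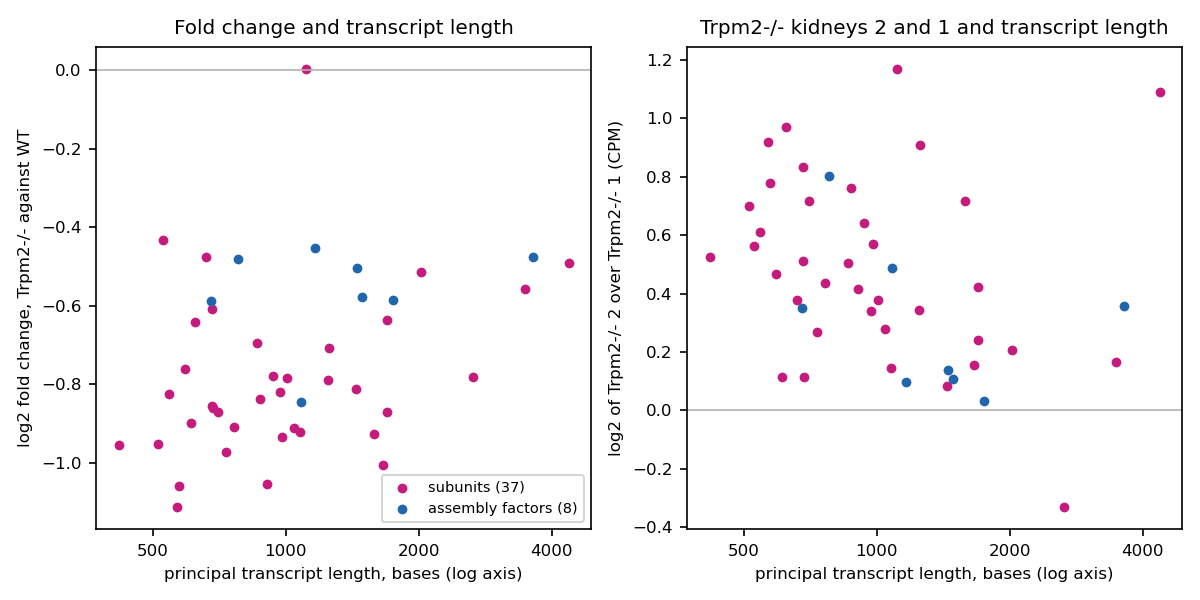
Left, log2 fold change of 45 complex I genes, Trpm2-/- against WT (vertical axis), against the length of its principal transcript in bases (log axis), for 37 subunits in magenta and 8 assembly factors in blue. Right, log2 of the CPM of Trpm2-/- mouse 2 over that of Trpm2-/- mouse 1 for the same genes: nearly all lie above 0, with a median of 0.42 and higher values among the shorter transcripts.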

How the data were processed

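RNA of the kidneys of 3 WT and 3 Trpm2-/- mice was sequenced. The authors deposited raw counts of reads per gene and FPKM values made from them with an exon-union gene length. The submitters' processing notes name HISAT2, StringTie and the build mm9, with no version, and the positions of 42 of the 46 members equal those of GRCm38 in GENCODE release 21 of the mouse. Strandedness is not given in the sources used here.

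All 6 columns of both tables were used. Counts were tested in R 4.3.3 with edgeR 4.0.16: filterByExpr kept 15816 genes, followed by TMM normalization and the two-sided quasi-likelihood test with genotype only (common dispersion 0.0445), with Benjamini-Hochberg adjustment over all genes tested. CPM use TMM library sizes. Each SE was obtained from the fold change and F (its size on the log2 scale over the root of F). FPKM served for levels between genes and, in limma 3.58.1, for alternatives on log2(FPKM + 1) and log2(FPKM + 0.1). DESeq2 1.42.0, limma-voom, other scalings, filters, length and GC corrections, a replicate block and leaving out each mouse were the other alternatives. The fits were tested on simulated data. Shared reads were estimated as the share of 75-base windows of a gene's transcripts found in another gene. The principal transcript is the longest with the best APPRIS tag. Promoter windows are from RefSeq (GRCm38.p6).

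The members and lists were chosen with earlier results of these data known. The rule for named genes took every core subunit and every Ndufaf gene, the 4 accessory subunits with the smallest p and the 2 with the largest, Ndufa4 and Ndufa4l2, every ND gene, and up to 4 genes with the smallest p among the other assembly factors and among the regulators. Ndufs6 and Ndufa2 were named outside it, after their values were seen, as were the holders of promoter motifs, Aqp2, Aqp3, Umod and Spp1. Ndufab1, Ndufb5 and Ndufb7 were also named outside it. A gene that this rule covers is counted in the totals and not reported here by name. Coa1 of the 14 other assembly factors was not found under that name, and 13 were used. A row named Ndufb1-ps, with a non-coding biotype in the table, is not a member by the rule.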

Additional observations from a re-analysis of the deposited data

How the results depend on the processing

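Over the alternatives, no subunit and no assembly factor was called higher, and both medians kept their direction. With the replicate block over pairs 1 and 2 (4 mice), 15 subunits and 0 assembly factors were called lower and 0 subunits were past the threshold of the study, with 602 genes called lower and 313 higher over all genes. The numbers 1 and 2 are only shared numbers: deviations of same-numbered mice correlated at 0.06 and -0.01. With the principal transcript length correction (added after seeing the data), 19 subunits and 1 assembly factor were called lower, 0 subunits were past the threshold of the study, and the medians were -0.53 and -0.32. Over all genes, 947 were called lower with that correction. With the gene length correction, 2 assembly factors were called lower, with a median of -0.43, and 0 subunits were past the threshold of the study, where the GC content correction gave 2. The gene length correction called 1017 genes lower over all genes. With no filter on low counts, 1262 genes were called higher. DESeq2 called 33 subunits lower and 5 ND genes higher, against 29 and 3 in the main fit. Over all genes DESeq2 called 1444 lower and 1095 higher, against 1152 and 750 in the main fit.

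Leaving out 1 mouse gave 11 to 33 subunits and 0 to 4 assembly factors called lower, 1 to 14 subunits past the threshold of the study, and 470 to 1240 genes lower and 160 to 819 higher over all genes. The 4 calls of assembly factors were all lost without WT mouse 2, without WT mouse 3 or without Trpm2-/- mouse 1. Those fits called 521, 470 and 848 genes lower over all genes. Over all fits without 1 mouse, the median was -0.95 to -0.74 for subunits and -0.61 to -0.47 for assembly factors. The lone change of sign among members was that of Ndufa12, which was -0.00667 with no filter, -0.000848 with limma-voom and between -0.44 and 0.36 without 1 mouse. mt-Nd3 changed sign too, at -0.37 with the GC content correction and between -0.041 and 0.12 without 1 mouse. In every fit, 9 members were called lower: Ndufa4, Ndufv1, Ndufv2, Ndufs7, Ndufb10, Ndufb11, Ndufs3, Ndufb5 and Ndufc2. The number of all genes called lower in every fit is not given here. It can be at most 470, the number called lower of the 16338 tested without WT mouse 3. Where no cause is named, the cause was not tested. Ndufa4l2 had 36 counts or fewer in each library, while the other 45 members had at least 158. Whether depth bears on its result was not tested.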

Other observations

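Rows of the table with a related name that the rule left out were measured as well. Ndufb1-ps, listed with a non-coding biotype, had 1208, 1598 and 1741 counts in WT and 901, 1019 and 916 counts in Trpm2-/- kidneys, with no overlap (log2 fold change -0.64, edgeR adjusted p = 0.037). Ndufab1-ps, a processed pseudogene of the acyl carrier protein gene, had 445, 546 and 588 counts in WT and 337, 191 and 419 counts in Trpm2-/- kidneys and was not called (log2 fold change -0.72, adjusted p = 0.078). In this row Trpm2-/- mouse 2 was the lowest kidney, whereas for Ndufab1 it lay between the other Trpm2-/- mice, at 115 CPM. The remaining 3 such rows, all processed pseudogenes, had 319 counts or fewer over the 6 libraries.

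Among the subunits, Ndufb2 stood apart in level. It held rank 45 of 46 in WT kidneys by FPKM and also by CPM per kilobase of the principal transcript, below every assembly factor, and 3.97% of its windows occur in another gene. Both ranks depend on the lengths used for Ndufb2, 5628 bases for the exon union and 4371 for the principal transcript. In CPM without a length, its WT mean was 18.8, above the 17.2 of Ndufaf5. Other ranks changed with the length used: Ndufb7 was at rank 34 by deposited FPKM and at rank 8 per kilobase of the principal transcript, and Ndufb8 at rank 29 and rank 5. For these genes a level read from the deposited FPKM depends on an exon union longer than the principal transcript, with 4522 against 623 bases for Ndufb7.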
